A study of Mus musculus with 15 samples.

Results

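The oxytocin and vasopressin system was described here through 6 genes: the peptide precursor genes Oxt and Avp, the receptor genes Oxtr and Avpr1a, Cd38 and Caprin2. They were taken by name from the deposited table, which held 24831 gene names and 49404 transcripts, and they made up 7 of these transcripts. Caprin2 had 2 transcripts in the table and each of the other genes had 1. All 6 passed a filter of at least 1 RPKM (reads per kilobase of a transcript, relative to all mapped reads) on the mean over the groups, as did 17481 or 70.4% of the names.

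The samples were hypothalami of CD-1 mice, an outbred stock, taken on postnatal day 15, and total RNA was sequenced in 15 samples. They formed 5 groups of 3, named Control, PGM, PGF, HF and HM. The series title concerns thyroid hormone effects in the F2 generation, and the labels give the group codes without spelling them out, so genotype, treatment and sex of a group are not stated here. The values were the authors' mean RPKM of each group, so there is no replicate check: no SD, interval or p-value can be given, the depth is unknown, and a mean may rest on 1 of its 3 samples. A difference is the value of log2(mean RPKM + 0.5) in a group less the value in its reference, which understates the difference of low genes, and a gene was counted at 1.5-fold (0.58 on this scale).

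Oxytocin and vasopressin are short peptide hormones made by large, magnocellular neurons of the paraventricular and supraoptic nuclei and released into the blood from the posterior pituitary. Smaller neurons of the paraventricular nucleus, and for vasopressin those of the suprachiasmatic nucleus, also make them and release them within the brain. Each is cut from a precursor that carries its own neurophysin, a carrier protein, and both act on receptors coupled to Gq proteins. Oxytocin is known for milk ejection, labour and social behaviour, and vasopressin for water retention, blood pressure and social behaviour.

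Oxt and Avp lie next to each other and are transcribed toward each other. In GENCODE M21 (GRCm38, the assembly called mm10) Oxt covers chr2:130576173-130577054 on the plus strand and Avp chr2:130580620-130582554 on the minus strand, each with 3 exons, and 3565 bases separate their 3′ ends. No other annotated gene overlaps either. Their transcripts share a run of 127 identical bases in the neurophysin coding sequence, which is shown because reads from it cannot be assigned to either gene. It begins with the last 2 bases of exon 1 and continues in exon 2.
Shared run of Oxt and Avp: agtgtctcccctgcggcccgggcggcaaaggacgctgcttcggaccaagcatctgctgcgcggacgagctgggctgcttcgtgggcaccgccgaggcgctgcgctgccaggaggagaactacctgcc
The run makes up 23.6% of the 537 bases of the Oxt transcript (positions 156 to 282) and 22.0% of the 577 bases of the Avp transcript (positions 144 to 270). Of all windows of 50 bases in these transcripts, 16.0% for Oxt and 14.8% for Avp were identical in the other, and at 100 bases 6.39% and 5.86% were. Neither the read length nor the handling of such reads was stated in the sources used here, so part of each gene's value may come from reads of the other.

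The promoters of the pair are printed because both genes were lower in the same groups. Each sequence is the 250 bases before the RefSeq start (GRCm38.p6), chr2:130575919-130576168 on the plus strand for Oxt and chr2:130582589-130582838 on the minus strand for Avp. Capitals mark matches, on either strand, to the motifs searched: AGGTCA, the core bound by nuclear receptors, a family that includes the thyroid hormone receptors, the cAMP response element TGACGTCA, the E-box CACGTG bound by clock factors among others, and TATAAA.
Oxt: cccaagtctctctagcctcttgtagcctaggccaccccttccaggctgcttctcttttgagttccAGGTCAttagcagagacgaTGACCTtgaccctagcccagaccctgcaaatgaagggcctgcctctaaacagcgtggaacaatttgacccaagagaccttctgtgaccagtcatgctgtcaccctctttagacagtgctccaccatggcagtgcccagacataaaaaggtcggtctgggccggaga
Avp: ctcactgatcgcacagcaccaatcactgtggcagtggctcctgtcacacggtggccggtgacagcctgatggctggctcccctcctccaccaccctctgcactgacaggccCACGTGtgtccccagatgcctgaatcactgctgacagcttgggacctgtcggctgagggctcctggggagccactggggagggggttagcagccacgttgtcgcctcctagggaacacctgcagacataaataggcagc
Oxt held 2 matches to AGGTCA, on opposite strands, starting at -185 and -166 from the RefSeq start, and Avp held 1 to CACGTG at -139. Over the windows of 300 bases (250 before to 50 after the start) of 32851 promoters in the table, 16.3% held AGGTCA at least once and 1.81% held 2 or more, 7.15% held CACGTG, 13.6% TATAAA and 1.79% TGACGTCA. Windows of all 6 genes were found. Oxtr held 1 AGGTCA and 1 CACGTG, Avpr1a 1 TATAAA, and those of Cd38 and Caprin2 held none of the motifs. A match describes letters only and is no evidence of binding.

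The precursor genes were by far the most abundant of the 6, and both were lower in PGM and PGF than in the other groups. Oxt, which encodes oxytocin and its neurophysin, was at 503.61 RPKM in Control, 458.94 in HM, 418.09 in HF, 288.67 in PGM and 210.41 in PGF. Avp, which encodes vasopressin, its neurophysin and copeptin, was at 658.5 RPKM in Control, 525.14 in HM, 521.31 in HF, 352.3 in PGM and 266.76 in PGF. Both genes thus had the same order of groups, an order shared by 230 or 1.32% of the genes tested. Without values per sample it cannot be said which neighbours in this order, such as HM and HF for Avp, differ beyond their spread. In Control only 1.09% of the tested genes had a higher RPKM than Avp and 1.65% a higher one than Oxt, against 3.61% and 4.62% in PGF.

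**Figure D1:**
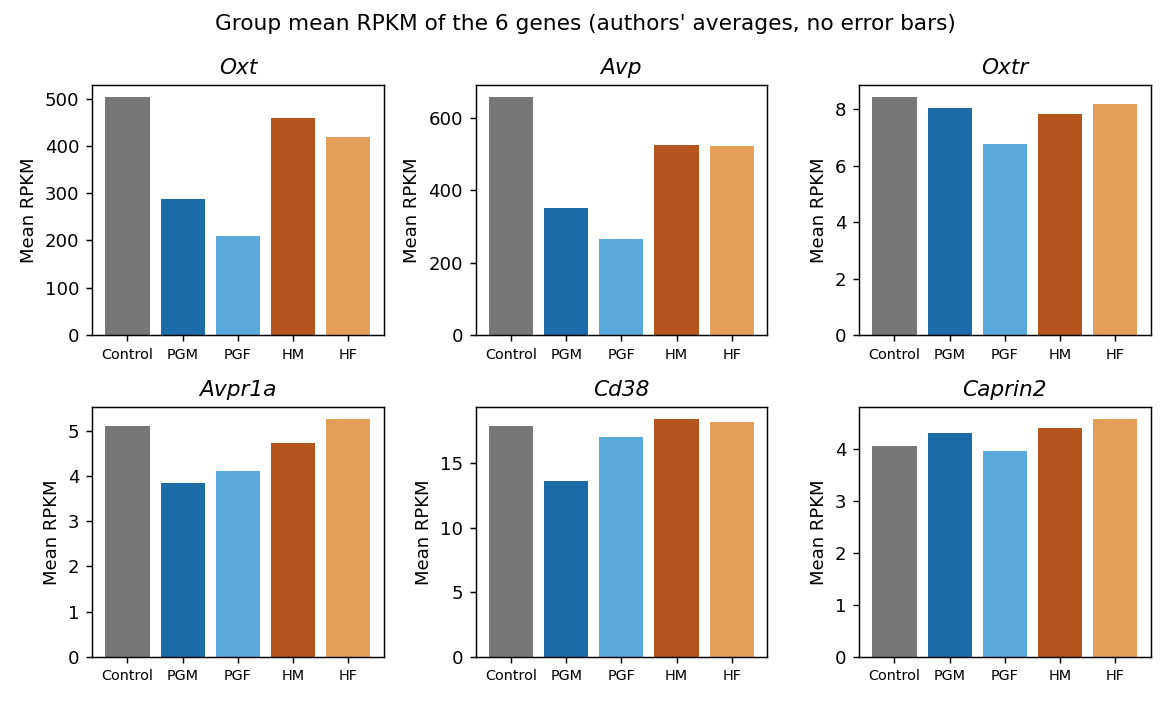
Mean RPKM (vertical axes, each from 0) of the 6 genes in each group, one panel per gene; bars are the authors' averages and have no error bars. Oxt and Avp run from 503.61 and 658.5 RPKM in Control to 210.41 and 266.76 in PGF, while the other 4 genes vary by at most 1.37-fold between groups.

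In PGM, Oxt differed from Control by -0.80 (1.74-fold lower) and Avp by -0.90 (1.87-fold lower). These 2 of the 6 genes were the members at least 1.5-fold lower, where 2.28% of all tested genes were, and no member was at least 1.5-fold higher (2.34% of all genes). In PGF, Oxt differed by -1.26 (2.39-fold lower) and Avp by -1.30 (2.47-fold lower), and again these 2 of 6 were past 1.5-fold, where 1.88% of all genes were that much lower and 2.16% that much higher. Ranked from the lowest difference in PGF among 17481 genes, Avp was at place 12 and Oxt at place 14. In PGM the places were 82 for Avp and 125 for Oxt. In bulk tissue, fewer cells of a type and less RNA per cell cannot be told apart.

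In HM and HF none of the 6 genes reached 1.5-fold from Control in either direction, where 1.54% and 0.829% of all genes did. These were 0.675% higher and 0.864% lower in HM. For HF, 0.658% were higher, and 30 of the 17481 genes were lower. Oxt differed by -0.13 in HM and -0.27 in HF, and Avp by -0.33 and -0.34. In HF, where genes overall differed little, 1.91% of genes lay below Oxt and 0.995% below Avp. In HM the shares were 24.8% and 5.89%. All 4 comparisons share the Control samples, so a high mean in Control would lower both genes in each of them.

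PGM and PGF were also set against each other, as were HM and HF, which involves no Control sample. Oxt was 0.46 higher in PGM than in PGF and Avp 0.40 higher, both short of 1.5-fold, and no member was past it where 0.99% of all genes were. Ranked from the highest difference in this comparison, Oxt was at place 183 and Avp at place 265. Between HM and HF the differences were 0.13 for Oxt and 0.01 for Avp, and 1.68% of all genes but none of the 6 reached 1.5-fold. With HF in place of Control as the reference, Oxt and Avp were at -0.53 and -0.56 in PGM, just under 1.5-fold, and both stayed past it in PGF.

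**Figure D2:**
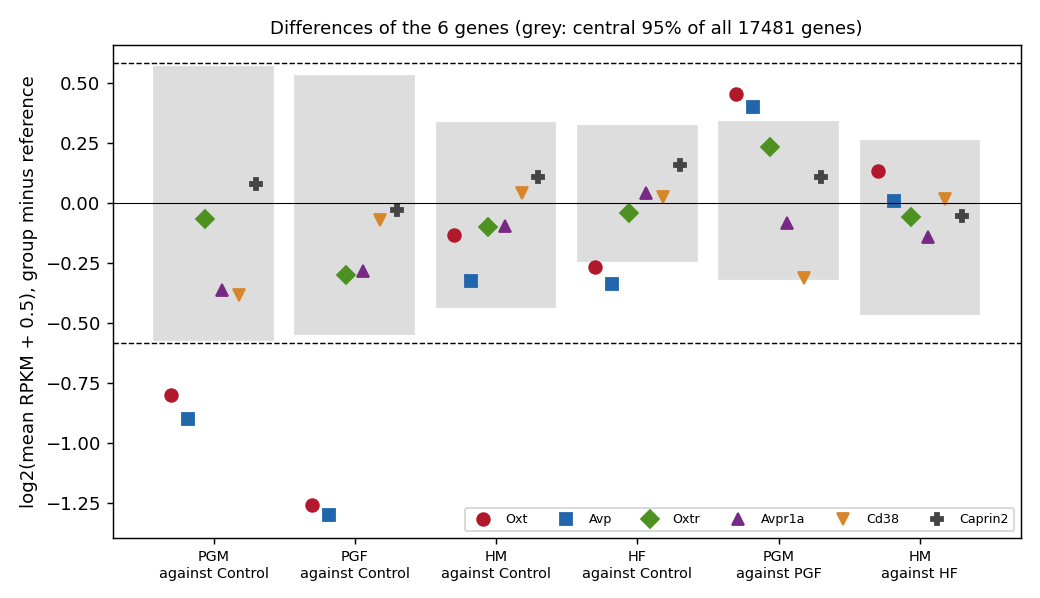
Difference in log2(mean RPKM + 0.5) between a group and its reference (vertical axis) for the 6 genes (symbols) in the 6 comparisons; grey boxes span the central 95% of the 17481 tested genes and dashed lines mark 1.5-fold. Oxt and Avp lie below the grey box and the dashed line in PGM and PGF against Control. They also lie below the box in HF against Control and above it in PGM against PGF, but inside the dashed lines. The other 4 genes lie inside the dashed lines everywhere.

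The balance between the peptides varied little. The Avp to Oxt ratio of RPKM was 1.31 in Control, 1.22 in PGM, 1.27 in PGF, 1.14 in HM, with 1.25 in HF, a span of 1.14-fold, while each gene alone spanned 2.39-fold (Oxt) and 2.47-fold (Avp). Scaling of all values of a group cancels in this ratio, but scaling of a single library within the group mean need not. Reads from the run that the 2 transcripts share could draw the 2 values together, which was not tested. By the distance between profiles centred over the 5 groups, Avp was the gene nearest to Oxt and Oxt the gene nearest to Avp among 13722 genes whose mean reached 5 RPKM (distance 0.144, Pearson r 0.991 over 5 group means).

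The other genes near them, by the same rule, were genes of hypothalamic neurons in several cases. Gabre, a GABA receptor subunit gene, was at 10.98 RPKM in Control, 5.34 in PGM, 4.38 in PGF, 7.32 in HM, with 8.09 in HF (distance 0.219 from Avp and 0.353 from Oxt). Irs4, an insulin receptor substrate gene, went from 67.8 RPKM in Control to 34.84 in PGM and 32.5 in PGF (0.303 from Avp). Otp, a transcription factor gene needed to form Oxt and Avp neurons, was 0.315 from Avp, Ghrh, the growth hormone releasing hormone gene, 0.348 from Oxt, Trh, the thyrotropin releasing hormone gene, 0.38 from Avp, and Vwa5b1 0.434 from Oxt. These distances rest on the same 5 group means and on a profile with low PGM and PGF values, so they describe likeness only.

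**Figure D3:**
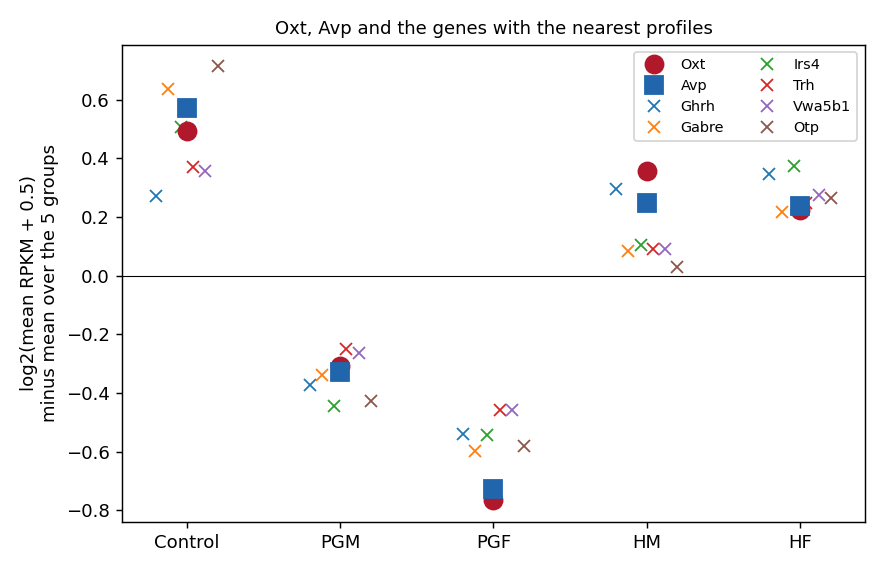
Value of log2(mean RPKM + 0.5) minus its mean over the 5 groups (vertical axis) in each group (horizontal axis) for Oxt, Avp and the 6 other genes with the nearest profiles (crosses). All 8 genes lie above 0 in Control, HM and HF and below 0 in PGM and PGF, and Oxt and Avp have the lowest PGF values among them.

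The receptor genes were low and varied less. Oxtr, the oxytocin receptor gene (chr6:112473683-112489943, minus strand), was at 8.43 RPKM in Control, 8.19 in HF, 8.04 in PGM, 7.84 in HM and 6.75 in PGF. Its lowest value was thus in PGF (-0.30 from Control, with 11.7% of genes lower), and the other groups lay within 0.10 of Control on the log2 scale. Avpr1a, the main vasopressin receptor gene of the brain (chr10:122448499-122453452, plus strand), was at 5.27 RPKM in HF, 5.1 in Control, 4.74 in HM, 4.1 in PGF and 3.85 in PGM. It differed from Control by -0.36 in PGM and -0.28 in PGF, with 7.58% and 13.0% of genes lower. An annotated antisense gene, Gm48877, covers the whole of Avpr1a, and no source used here states whether counting used strand. The other vasopressin receptor genes did not pass the filter: Avpr1b, the receptor of pituitary corticotrophs, was at 0.02 to 0.06 RPKM and Avpr2, the kidney receptor, at 0.04 to 0.15 RPKM in the 5 groups. Anterior pituitary hormone genes were high in PGF, with Gh, the growth hormone gene, at 1362.58 RPKM against 39.79 in Control, and Avpr1b was at 0.06 RPKM there.

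Cd38 and Caprin2 act on the output of these neurons. Cd38 (chr5:43868553-43912375, plus strand) encodes an enzyme that makes cyclic ADP-ribose, a calcium-mobilizing messenger needed for oxytocin release. It was at 18.46 RPKM in HM, 18.23 in HF, 17.89 in Control and 17 in PGF, and lowest in PGM with 13.62. The PGM value differed by -0.38 from Control and by -0.31 from PGF, and in the comparison with PGF only 2.56% of genes were lower. Immune cells and astrocytes also express Cd38. Over all genes, 2.28% were at least 1.5-fold lower and 2.34% higher in PGM. Of 7 measured immune genes none was at least 1.5-fold different in PGM (median 0.10), and of 10 astrocyte genes 1, Gfap at 145.92 against 243.68 RPKM, was lower by that much (median -0.05). Their part in the Cd38 value was not tested. Annotated genes within Cd38, Gm16014 on the same strand and Gm16015 on the opposite strand, are not separated from it here.

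Caprin2 (chr6:148842492-148896237, minus strand) encodes an RNA-binding protein that binds Avp mRNA and lengthens its poly(A) tail under osmotic stress. The median of its transcripts was at 4.58 RPKM in HF, 4.4 in HM, 4.305 in PGM, 4.045 in Control and 3.955 in PGF, a span of 1.16-fold. Its 2 transcripts, uc009eto.1 and uc009etp.1, were nearly alike in every group, at 4.04 and 4.05 RPKM in Control, 4.28 and 4.33 in PGM and 3.94 and 3.97 in PGF. Caprin2 was the only member above Control in PGM (0.08), where Oxt and Avp were 1.74-fold and 1.87-fold lower. It differed by -0.03 in PGF, a sign that turned with quantile normalization, by 0.11 in HM and by 0.16 in HF.

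The profiles of these 4 genes were flat next to those of the peptide genes. The nearest genes were Bmp2, Vrk2, Pbx4 and Lemd3 for Oxtr (distances of 0.0125 to 0.0329), Papss2, Pmfbp1 and Cmah, listed under 2 spellings, for Avpr1a (0.0268 to 0.0478), Msn, Tmie, Itih5 and Mid1 for Cd38 (0.0815 to 0.0948), and Zfp964, Zfp930 and Slc11a2, listed also as Nramp2, for Caprin2 (0.0278 to 0.036). With so little variation many genes lie close, and none of the peptide genes' neighbours was among them. Oxtr, Avpr1a, Cd38 and Caprin2 were 0.863, 0.786, 0.915 and 0.991 away from Oxt. Such distances grow with the size of the differences. Pearson r with Oxt over the 5 group means was 0.834, 0.819, 0.526 and 0.441 in the same order.

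Transcription factor genes and other genes linked to magnocellular neurons were set beside Oxt and Avp. Of 9 measured genes of this list, 2 were at least 1.5-fold lower and 1 higher in PGM (median -0.40, against 0.005 over all genes). In PGF, 3 were lower and 1 higher (median -0.44, against -0.03). Over all genes, 2.28% were that much lower and 2.34% higher in PGM, and 1.88% and 2.16% in PGF. Otp was at 8.45 RPKM in Control, 3.56 in PGM, 3.15 in PGF, 5.07 in HM, with 6.05 in HF, and Sim1, which is also required for these neurons, at 5.68, 2.83, 2.88, 4.39 and 4.83 in the same order. Creb3l1, a factor that activates Avp transcription, was at 3.18 RPKM in Control and 1.83 in PGF. Rasd1, a Ras-like protein gene that responds to glucocorticoids and osmotic stimuli, was the higher member, at 36.58 RPKM in PGM and 37.44 in PGF against 15.44. In HM, Otp was again past 1.5-fold on the lower side and Rasd1, at 23.83 RPKM, on the higher, and in HF none of the 9 was. Few genes of any kind were: 0.864% lower and 0.675% higher in HM, and 0.829% in either direction in HF. The ratio of Oxt to Otp was 59.6 in Control, 81.1 in PGM, 66.8 in PGF, 90.5 in HM, with 69.1 in HF. Relative to Sim1, Oxt was at 88.7 in Control, 102 in PGM, 73.1 in PGF, 105 in HM, with 86.6 in HF. Other genes gave other orders. In the order Control, PGM, PGF, HM and HF, the ratio of Oxt to Trh was 3.72, 3.28, 2.77, 4.12 and 3.36. That of Oxt to Pdyn, the dynorphin gene, was 19.8, 9.99, 10.1, 18.7 and 18.8. That of Avp to Vip, a suprachiasmatic peptide gene, was 79.1, 45.7, 52.1, 52.1 and 57.2, as low in HM as in PGF. Whether the pair was lower relative to hypothalamic genes thus depended on the gene it was set against.

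Machinery shared by many peptide neurons differed less than the pair. Of 15 genes for processing and packing of peptides, none was 1.5-fold different in PGM or PGF, with medians of 0.001 and -0.04. Few genes of any kind were: 2.28% lower and 2.34% higher in PGM, and 1.88% and 2.16% in PGF. The largest difference was that of Vgf, a granule protein and peptide precursor gene, at 266.42 RPKM in PGF and 282.13 in HM against 396.14 in Control (-0.57 and -0.49), just under the threshold in PGF. Pcsk1, a convertase that cuts precursors, was at 31.12 RPKM in PGM and 32.81 in PGF against 39.64 in Control, and Pam, which amidates peptides including both hormones, at 213.19 and 217.35 against 257.96. Cpe, a carboxypeptidase of the same pathway, was at 2224.17 and 2137.87 RPKM against 1957.34. Lnpep, the aminopeptidase that degrades oxytocin and vasopressin, was at 45.29 and 47.98 against 57.08 RPKM, and none of the 3 measured members of its list was past 1.5-fold.

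Other genes of magnocellular neurons were mixed. Of 11 measured, 2 were at least 1.5-fold lower and 1 higher in PGM (median -0.06), and 1 lower and 1 higher in PGF (median -0.21). The shares over all genes were 2.28% lower and 2.34% higher in PGM, and 1.88% and 2.16% in PGF. Gal, the galanin gene, was at 28.26 RPKM in PGM against 46.16 in Control, and Nos1, the neuronal nitric oxide synthase gene, at 25.03 in PGM and 24.48 in PGF against 38.2. Cck, which is also abundant in thalamus and cortex, was at 231.08 and 217.1 against 114.42 RPKM. Pdyn, which vasopressin neurons also express, was at 28.88 RPKM in PGM and 20.77 in PGF against 25.46 and was not past 1.5-fold in either group. In HM the apelin receptor gene Aplnr, at 4.79 against 8.56, was past 1.5-fold, as was Th, the tyrosine hydroxylase gene, in HF at 103.37 against 62.03. Of all genes, 0.864% were that much lower in HM and 0.658% that much higher in HF.

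Among 6 parvocellular peptide genes of the paraventricular nucleus, only Trh was past 1.5-fold, at 87.88 RPKM in PGM and 75.95 in PGF against 135.42 in Control. Crh, the corticotropin releasing hormone gene, was at 9.62 and 9.48 against 9.19. Of 9 measured genes of the suprachiasmatic nucleus, 2 were lower and 1 higher in PGM, and 3 lower and 2 higher in PGF. Vip, a peptide of that nucleus, was at 7.71 RPKM in PGM and 5.12 in PGF against 8.32. Lhx1, a developmental factor there, was at 4.18 in PGM and 4.43 in PGF against 7.22, and Six6 at 1.83 and 2.24 against 3.69. The higher members were Vipr2, at 5.17 and 5.52 RPKM against 3.2, and in PGF also Rgs16, at 44.97 against 29.65. Rgs16 is also counted among the thalamic genes below. Of 8 measured genes of osmosensing and water balance 1 was lower in each group, Scn7a, a sodium-level sensing channel gene, in PGM (3.32 against 5.44 RPKM) and Agtr1a, an angiotensin receptor gene, in PGF (1.06 against 1.93). Beside these lists, 2.28% of all genes were lower and 2.34% higher in PGM, and 1.88% and 2.16% in PGF.

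Downstream of the receptors, 2 of 22 measured signalling genes were past 1.5-fold in PGM and in PGF, both higher, with list medians of 0.004 and -0.10. Of all genes, 2.34% were that much higher in PGM and 2.16% in PGF. Rgs4, a brake on Gq signalling, was at 433.39 RPKM in PGM and 437.6 in PGF against 273.97. The protein kinase C gamma gene, listed as Prkcc, was at 97.54 and 84.99 RPKM against 55.42. Both genes are also strongly expressed outside the hypothalamus. Gnaq, the Gq subunit gene, was at 85.87 and 83.83 RPKM against 93.08. In HM and HF none of the 22 was past 1.5-fold, where only 1.54% and 0.829% of all genes were.

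**Figure D4:**
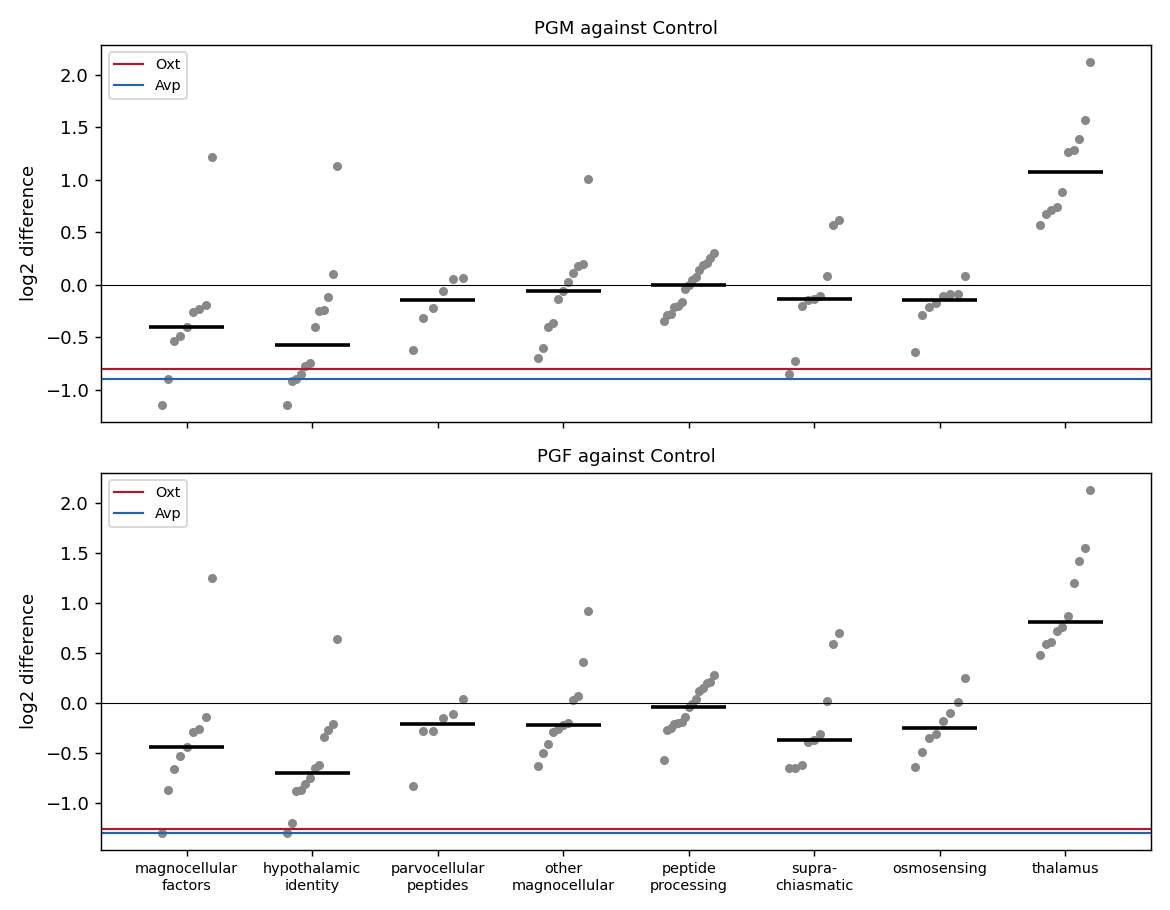
Difference in log2(mean RPKM + 0.5) from Control (vertical axis) in PGM (top) and PGF (bottom) for the measured members of 8 gene lists (grey points, black bars are medians), with horizontal lines at Oxt and Avp. In both groups the Oxt and Avp lines lie below all list medians, few list members reach them (Otp, at -1.14 in PGM and -1.29 in PGF, is the lowest in the first list), and the thalamic genes lie on the other side of 0. The lists overlap: Otp, Sim1, Six6 and Rgs16 are each shown again in a further list.

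Markers of hypothalamic neurons, of neighbouring tissue and of sex were set beside the Oxt and Avp values. The lists of hypothalamic neuron identity and of sex-linked genes were added after the data were seen. Otp, Sim1 and Six6 of the identity list are also counted in lists above. Of its 12 measured genes, 6 were at least 1.5-fold lower in PGM (median -0.57) and 8 in PGF (median -0.70). In each group 1 was higher, Lhx9, which is also expressed in thalamus. Of 10 thalamic genes, 9 were at least 1.5-fold higher in PGM and 9 in PGF, 3 in HM, with 0 in HF. Over all genes, 2.28% were that much lower and 2.34% higher in PGM, and 1.88% and 2.16% in PGF. The higher share was 0.675% in HM and 0.658% in HF. The summed level of the thalamic genes was 174.2 RPKM in Control, 444.7 in PGM, 437.1 in PGF, 248.4 in HM, with 170.4 in HF, and none was at 0. Genes of cortex and striatum summed to 97.04, 176, 122.5, 108.1 and 123.3 RPKM in that order, and those of the anterior pituitary to 97.33, 88.03, 2026, 112 and 58.58. The Oxt and Avp differences from Control were -0.80 and -0.90 in PGM, -1.26 and -1.30 in PGF. They were -0.13 and -0.33 in HM and -0.27 and -0.34 in HF, all under 1.5-fold. The Y-linked gene Ddx3y was at 2.52 RPKM in Control, 30.41 in PGM, 31.97 in PGF, 16.75 in HM, with 15.91 in HF, and Xist, the RNA of the inactive X, at 44, 14.22, 11.57, 26.38 and 35.42. The part of tissue share and of sex in the Oxt and Avp differences was not tested.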

How the data were processed

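Total RNA of 15 hypothalamus samples was sequenced, and samples were grouped by their titles. The deposited table held RPKM that the authors averaged within each group, per the file headers, rounded to 2 decimals. Reads were checked with FastQC and aligned with Novoalign 2.08 to mm10, per the submitters' processing notes. The counting program was not stated in the sources used here, and depth is unknown. A second header line inside the table, which named the columns as means of a control and of numbered experiments, was removed.

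The median over transcripts stood for each gene name, names whose mean reached 1 RPKM were kept, and differences of log2(mean RPKM + 0.5) were counted at 1.5-fold in 6 comparisons, with no test. All 6 members were named, with up to 4 list members past 1.5-fold and further members as examples chosen after their values were seen, and the nearest profiles by Euclidean distance (6 for Oxt and Avp, 4 for the others, leaving out clone names). The members and lists were chosen with earlier results of these data known. The lists of sex-linked and hypothalamic identity genes were added after the data were seen. Positions and transcripts come from GENCODE M21 by symbol and promoters from RefSeq (GRCm38.p6). The calculations were tested on simulated data. Pseudocounts, filters, transcript summaries, scalings, a 2-fold threshold and HF as the reference were tried. Python 3.11.15, numpy 2.4.6, pandas 2.3.3 and matplotlib 3.10.9 were used.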

Additional observations from a re-analysis of the deposited data

How the results depend on the processing

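Pseudocounts of 0.1 and 1, no filter or one of 3 RPKM, the mean or the highest transcript in place of the median, upper quartile scaling and quantile normalization left all 36 differences of the 6 genes on the same side of 1.5-fold. Under these, Oxt ranged from -0.87 to -0.80 in PGM and from -1.28 to -1.25 in PGF, and Avp from -0.95 to -0.90 and from -1.33 to -1.30. The count of members past the fold in PGM fell from 2 to 0 at a 2-fold threshold and to 0 with HF as the reference, and in PGF it was 2 under both. With HF as the reference the sex-linked list in HM had a median of -0.06. Without a filter 608 genes were lower in PGM (398 with it), 514 in PGF (329), 302 in HM (151) and 162 in HF (30). At 2-fold 55, 27, 13 and 14 were. Small differences of Caprin2 in PGF and of Caprin2 and Oxtr between HM and HF changed sign with quantile normalization and were under 1.5-fold throughout. No paired analysis was possible because the columns are group means without replicate numbers, and leaving out a replicate was not run for the same reason. Depth is unknown, and rounding to 2 decimals limits Avpr1b and Avpr2.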

Other observations

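Among abundant genes, the pair stood at the low end. Of 1933 genes whose mean reached 100 RPKM, a limit chosen after the values were seen, Avp had the lowest and Oxt the second lowest difference from Control in PGF, ahead of Ptgds, Trh and Mest. In PGM, Avp ranked 4 and Oxt 8 from the lowest, and 18 or 0.931% of the abundant genes were at least 1.5-fold lower in each group. In HF, where 2 of the abundant genes were that much lower, Avp ranked 8 and Oxt 14, and in HM they ranked 37 and 233.

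Of the 6 genes, 4 (Oxt, Avp, Avpr1a and Cd38) had both their PGM and their PGF value under those of the other 3 groups, a pattern that 3825 or 21.9% of the tested genes share.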
